A study of Mus musculus with 12 samples.

Results

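The difference between TNF-9 knockout (KO) and wild-type (WT) macrophages in their response to lipopolysaccharide (LPS) was examined in protein-coding genes. TNF-9, named HSS9 in the sample labels, is an upstream enhancer of Tnf, which encodes tumor necrosis factor alpha. The difference was taken as the LPS response in KO minus the LPS response in WT on the log2 scale, so that a positive value means that a gene rose more, or fell less, with LPS in KO. Members were all genes annotated as protein coding in GENCODE on GRCm38, without histone genes (symbols starting Hist). The count table held 48526 genes, of which 21618 were members, and 12166 members passed the filter on low counts among 15523 genes tested.

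The cells were bone marrow-derived macrophages (BMDMs), grown from mouse bone marrow for 6 days in medium conditioned by L929 cells. There were 12 libraries of total RNA in 4 groups of 3: WT and KO given PBS for 6 hr as the untreated control (WT UT, KO UT), and WT and KO given LPS for 6 hr (WT LPS, KO LPS). KO mice were homozygous for the HSS9 deletion and were bred as homozygous pairs, and all mice were males of 7 to 10 weeks by the methods of the study. The labels describe the WT mice as HSS9+/+ littermates, whereas the methods name purchased C57BL/6 mice and give no strain for the KO mice, so genotype, line and breeding cannot be told apart. Nothing states whether the 3 libraries of a group came from separate mice, so p-values measure the spread between libraries only. Library totals ranged from 26154533 to 36423921 counts.

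LPS is sensed by Toll-like receptor 4, which drives NF-kappaB and interferon regulatory factors. The first switches on Tnf, chemokines and other early inflammatory genes. The second switches on interferon beta, which then acts back on the macrophage and raises a large set of interferon-stimulated genes, including guanylate-binding proteins, the Ifi200 family of DNA sensors and the Schlafen (Slfn) family. Resting macrophages hold a low level of many of these genes through weak tonic interferon signalling. A difference in LPS response can therefore arise from the level before LPS, from the level after it, or from both, and both levels are given.

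The macrophage label was checked first. All 8 macrophage markers were tested and 0 were called for the interaction, where 1.23% of all members were. At any fold, Csf1r (0.29), Fcgr1 (0.27) and Cd68 (-0.29) had an edgeR adjusted p below 0.05. The summed level of the 8 markers was 28520 to 29560 CPM in WT UT and 32710 to 33820 CPM in KO UT. After LPS it was 24740 to 26240 CPM in WT and 27370 to 29040 CPM in KO. CPM is a count divided by the TMM-scaled library total and given on a common scale. The summed level of 8 neutrophil markers was 2.67 to 3.32 CPM in WT UT, 4.22 to 5.49 CPM in KO UT, 3.99 to 4.95 CPM in WT LPS and 4.58 to 5.37 CPM in KO LPS. The macrophage sum was thus higher in KO without overlap in both treatments, and the neutrophil sum in UT, and the part of either in the results was not tested. Lyz2 made up most of the macrophage sum, at 23450 CPM in WT UT and 27340 CPM in KO UT. On average Csf1r (2448 CPM in WT UT, 2242 CPM in KO UT) and Fcgr1 were not higher in KO UT, and the other macrophage markers were. The summed level of 5 B cell markers was 0.0898 to 1.79 CPM, and 4 globin genes were at 0 in every library. Of 5 T cell markers only Cd28 and Lck were tested, and Cd3d, Cd3e and Cd3g did not pass the filter. The T cell sum was 114.7 to 137.7 CPM in UT, nearly all of it Cd28, and 7.86 to 9.95 CPM after LPS, most of it Lck. The libraries differed in other respects. Small structured and ribosomal RNAs took 4.3 to 4.48% of counts in WT UT, 8.04 to 9.14% in KO UT, 4.97 to 7.71% in WT LPS and 4.33 to 4.43% in KO LPS. The small RNA share was used as a covariate in an alternative fit, in which 5 of the 67 higher and 4 of the 83 lower calls of members were still made. These were Slfn1, Slfn4, Ifi213, Gvin1 and Vcan, and Il10, Cxcl1, Mycl and Rgs1, so every other called gene named here lost its call in that fit. The share was higher in KO than in WT in UT and lower in KO than in WT after LPS, without overlap in either. It thus runs along the same contrast as the interaction, and its part in the results cannot be told apart from the interaction in these libraries.

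The responses of the genotypes were close for most genes. Across the 12166 members, the log2 LPS responses in WT and in KO were correlated (Pearson r 0.955, Spearman rho 0.933), given as a description since genes are not independent replicates. They were within 0.5 of each other for 80.9% of members. In WT 2012 members rose and 2475 fell, and in KO 2034 rose and 2444 fell, by a call that took an edgeR adjusted p under 0.05 together with a log2 change beyond 1 in size (37.8% of all genes tested were called in WT and 37% in KO). The members that rose in both genotypes numbered 1768, which is 87.9% of those of WT and 86.9% of those of KO. Only 1 member was called in opposite directions.

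The interaction was called, at the same thresholds, for 150 members, or 1.23% of those tested, where 2.16% of all genes tested were called. The response was larger in KO for 67 members (0.551%, against 0.522% of all genes) and smaller for 83 (0.682%, against 1.64% of all genes). Smaller responses outnumbered larger ones less among the members than among all genes, and 28 of the 58 histone genes tested, which are left out here, were called as smaller. At any fold, 1105 members had a larger response in KO and 1134 a smaller one at an adjusted p below 0.05 (9.08% and 9.32%, against 7.32% and 9.5% of all genes). The median interaction over members was 0.03 with a 5th percentile of -0.80 and a 95th percentile of 0.66, and the median SE of a member was 0.13. The higher share among the calls was 44.7% with TMM scaling and 60.9% with RLE scaling, which gave 92 higher and 59 lower calls. Without WT LPS replicate 1 the calls were 274, of which 176 were lower, and without WT LPS replicate 3 they were 97, of which 45 were lower.

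**Figure D1:**
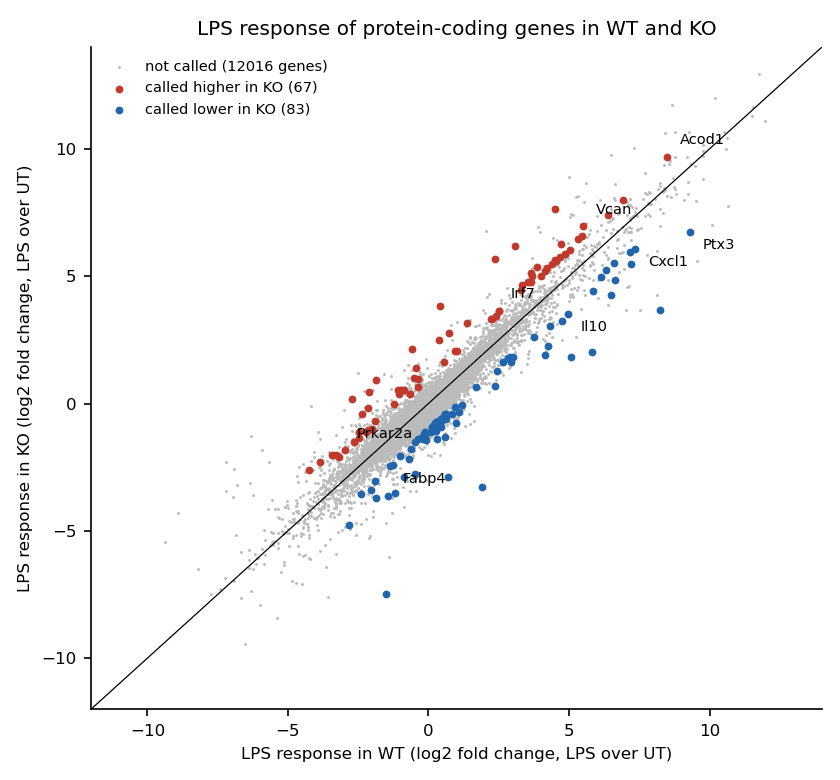
LPS response of each of 12166 protein-coding genes as log2 fold change, in WT on the horizontal axis and in KO on the vertical axis, with the line of equal response. The 67 genes called higher (red) lie above the line and the 83 called lower (blue) below it, and most of the cloud lies along it.

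In most called genes the fitted genotype difference was larger before LPS than after it. Of the 67 called higher, 43 had a larger genotype difference in UT than after LPS, with a median log2 difference (KO over WT) of -0.99 in UT and 0.32 after LPS. In 46 of them the 3 KO UT libraries all lay below the 3 WT UT libraries, an arrangement seen in 22.3% of all members tested. Of the 83 called lower, 62 had a larger genotype difference in UT, with medians of 0.82 in UT and -0.45 after LPS, and in 66 the 3 KO UT libraries all lay above those of WT UT (22.6% of all members). These differences use the same libraries as the interaction and describe where it lies. The genotype difference itself was called in UT for 32 of the 67 and 15 of the 83 genes (1.82% of all genes tested), and after LPS for 17 and 7 (1.25% of all genes tested). The genotype difference was called in neither treatment for 18 of the 67 and 61 of the 83 genes, and in both for 0.

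**Figure D2:**
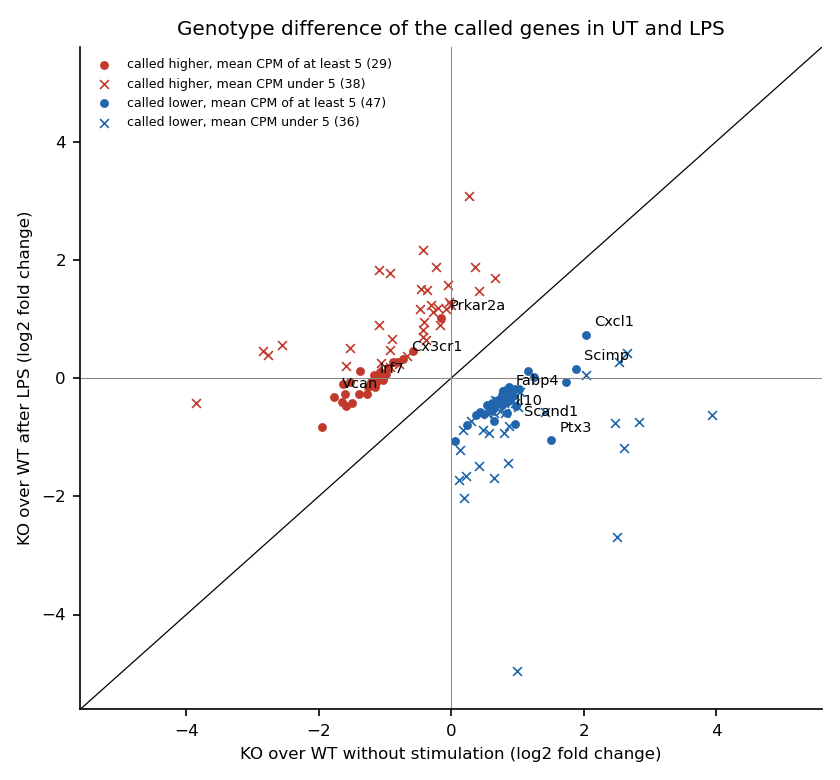
Log2 fold change of KO over WT in UT (horizontal) and after LPS (vertical) for the 150 called genes, with the line of equal difference; dots have a mean CPM of at least 5 and crosses a lower one. The larger difference is in UT for 43 of the 67 genes called higher and 62 of the 83 called lower, while for Prkar2a it is after LPS and Cxcl1 is higher in KO in both.

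Tnf and its neighbors are given first, since the deletion lies beside them. Tnf (ENSMUSG00000024401.14, chromosome 17, 35199381 to 35202007) rose with LPS by 5.86 (log2) in WT and by 5.48 in KO. The interaction of -0.38 (SE 0.0947, edgeR adjusted p 0.00763) passed the p threshold and not the fold change threshold. Its level was lower in KO by 0.66 in UT and by 1.04 after LPS, so the deficit was present in both treatments. Il6, a cytokine gene on chromosome 5, rose by 10.59 in WT and 10.01 in KO. It was at 438, 479 and 438 CPM in WT LPS and at 233, 232 and 234 CPM in KO LPS, and its interaction of -0.58 (SE 0.534, adjusted p 0.511) rested on fewer than 1 CPM in every UT library. Lta, which encodes lymphotoxin alpha, had 0 counts in all 3 KO UT libraries and at most 28 in any library, and Ltb had at most 18, so no difference in response was detectable at this depth. Among 80 members tested within 1000000 bases of Tnf, 1 was called for the interaction, where 1.23% of all members were. It was Msh5, a mismatch repair family gene of meiosis at a mean of 2.34 CPM (log2 -1.10, SE 0.338, adjusted p 0.0288). The genotype difference after LPS was called for 3 of these genes (1.25% of all genes tested were called), Tnf, Lta and Gm16181, of which the last starts 21453 bases from the start coordinate of Tnf and had an interaction of -0.65 (adjusted p 0.423).

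Interferon-stimulated genes were among the groups with a larger response in KO. Most were lower in KO before LPS and, by the list medians, nearly at the level of WT after it. Some called genes, such as Ifi44, Oasl1, Gbp6 and Ifi214, stayed below WT after LPS without overlap. Of 38 genes tested in a list of general interferon-stimulated genes, 3 were called higher (Ifi44, Ifit2 and Oasl1) and 0 lower, and 31 had a larger response at any fold against 1 with a smaller one. The median interaction of the list was 0.50, beside 0.03 over all members, and the median genotype difference was -0.61 in UT and -0.06 after LPS. In 33 of the 38 genes all KO UT libraries lay below all WT UT libraries. With the small RNA share as a covariate the median was 0.36 and 1 gene was called, and 1 was called without WT LPS replicate 3. Fewer cells with such a program and less RNA per cell cannot be told apart in these bulk libraries.

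Irf7 (ENSMUSG00000025498.15, chromosome 7), the interferon regulatory factor that amplifies interferon production, shows the pattern. It was at 163, 159 and 163 CPM in WT UT and at 70.6, 70.1 and 69.3 CPM in KO UT, with no overlap. After LPS it was at 976, 864 and 885 CPM in WT and at 837, 857 and 920 CPM in KO, with overlap. Its rise was 2.49 (log2) in WT and 3.64 in KO, a difference of 1.15 (SE 0.0781, edgeR adjusted p 1.02e-08). Irf7 was the only 1 of 21 genes of interferon signalling and its JAK feedback to be called, and 6 of them had a larger response at any fold and 0 a smaller one. Under the small RNA covariate Irf7 was at 0.84 and no longer called, and the median of the list went from 0.18 to 0.00117.

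Ifi44, an interferon-induced gene linked to growth arrest, was at 48.4, 53.9 and 51.6 CPM in WT UT and 17, 15.7 and 17.9 CPM in KO UT. After LPS it was at 557, 507 and 474 CPM in WT and 421, 422 and 438 CPM in KO. All KO libraries were below all WT libraries in both treatments, by 1.60 on the log2 scale in UT and 0.26 after LPS, and the interaction was 1.34 (SE 0.0936, adjusted p 1.06e-08). Ifit2, which binds viral RNA, was at 199 ± 8.23 CPM (SD, n = 3) in WT UT and 101 ± 2.41 in KO UT, and its libraries overlapped after LPS (interaction 1.05, SE 0.1, adjusted p 7.10e-07). Oasl1, a 2'-5' oligoadenylate synthetase-like protein that holds back Irf7 translation, was at 22.7, 22.5 and 22.6 CPM in WT UT and 10.7, 10.3 and 9.61 CPM in KO UT (interaction 1.00, SE 0.0806, adjusted p 6.24e-08). The only member of the list with a smaller response at any fold was Ifi27l2a (log2 -0.71, adjusted p 0.00281), which was named after its values were seen.

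Further lists held families of interferon-inducible genes that sit in genomic clusters. All 7 Schlafen genes tested, which encode regulators of growth and of transfer RNA, had a larger response in KO at any fold, and 3 were called. The median of the list was 0.96, and 0.12 with 2 called when the small RNA share was a covariate. Slfn1 (chromosome 11) was at 8.77, 6.64 and 7.78 CPM in WT UT and 2.89, 2.44 and 3.52 CPM in KO UT, and at 114, 118 and 109 CPM in WT LPS against 122, 124 and 125 CPM in KO LPS. The KO libraries lay below WT before LPS and above WT after it (interaction 1.5, SE 0.137, adjusted p 3.83e-07). Slfn4 was at 19.6 CPM in WT UT and 6.93 CPM in KO UT, and stayed lower in KO after LPS at 1762 against 2349 CPM (interaction 1.08, SE 0.0782, adjusted p 1.67e-08). Slfn9 was lower in KO UT and its libraries overlapped after LPS (interaction 1.10, adjusted p 6.71e-06).

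Of 12 Ifi200 genes tested, which encode nuclear and cytosolic nucleic acid sensors on chromosome 1, 10 had a larger response at any fold and 4 were called. Their median was 0.67, and 0.24 with 1 called under the small RNA covariate. Ifi206 was at 21.4, 20.6 and 22.8 CPM in WT UT and 7.58, 7.58 and 7.33 CPM in KO UT, and its libraries overlapped after LPS (interaction 1.46, SE 0.126, adjusted p 1.92e-07). Ifi209, Ifi213 and Ifi214 had interactions of 1.18, 1.12 and 1.14, and Ifi214, at under 1.2 CPM in every UT library, was the least certain (SE 0.358, adjusted p 0.0337). Ifi214 stayed lower in KO after LPS, at a mean of 22.61 against 39.99 CPM in WT. Ifi200 and Schlafen genes are near-identical copies in part, and how reads shared by copies were counted is not given in the sources used here, so single members are uncertain. Of 17 interferon-inducible GTPases tested, which attack vacuoles that hold pathogens, 13 had a larger response at any fold, 0 a smaller one, and 3 were called. They were Gvin1 (1.06, adjusted p 1.65e-05), Tgtp2 (1.00, adjusted p 1.07e-05) and Gbp6 (1.00, adjusted p 0.0112), and the median over the list was 0.68. It was 0.22 with 1 called under the small RNA covariate, and 0.81 with 1 called when the exonic length trend was taken out. Only 1 was called without WT UT replicate 1, KO UT replicate 1 or WT LPS replicate 3, with protein-coding genes alone in the fit or with a filter at a mean CPM of 1, and 5 were called with RLE scaling.

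The promoters of these genes were read from RefSeq windows on GRCm38.p6 that run from 250 bases before to 50 bases after each annotated start, and 119 of the 150 called genes had a window. The interferon-stimulated response element (ISRE) is the site of interferon-activated factors, and its core was searched as GAAANNGAA on both strands. It was present in 7 of 28 windows of called-higher genes averaging at least 5 CPM (25%), in 10 of 68 windows of all called-higher genes (14.7%), in 2 of 38 windows of called-lower genes averaging at least 5 CPM (5.26%), in 4.48% of windows of all called-lower genes, in 7.43% of windows of all members tested and in 8.56% of all 32851 windows. The 7 windows are shown around the match, 5′ to 3′ on the strand of the gene with the match in capitals, because they let the shared core be seen in genes of different families.
Ifi206, chr1:173491325-173491383, minus strand, 40 bases before the start: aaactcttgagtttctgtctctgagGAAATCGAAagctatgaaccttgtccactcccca
Ifi213, chr1:173599312-173599370, minus strand, 73 bases before the start: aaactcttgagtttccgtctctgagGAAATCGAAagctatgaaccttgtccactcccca
Ifi214, chr1:173536003-173536061, minus strand, 79 bases before the start: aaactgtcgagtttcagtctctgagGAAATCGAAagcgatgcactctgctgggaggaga
Ifi44, chr3:151749880-151749938, minus strand, 3 bases before the start: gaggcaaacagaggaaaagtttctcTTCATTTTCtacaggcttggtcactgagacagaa
Slfn9, chr11:82991841-82991899, minus strand, 44 bases before the start: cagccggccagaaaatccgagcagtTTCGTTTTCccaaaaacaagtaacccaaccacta
Tgtp2, chr11:49064249-49064307, minus strand, 70 bases before the start: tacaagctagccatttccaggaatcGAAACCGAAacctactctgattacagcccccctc
Tnfsf8, chr4:63861350-63861408, minus strand, 99 bases before the start: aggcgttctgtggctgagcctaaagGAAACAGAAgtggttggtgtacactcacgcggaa
The 3 Ifi200 windows, which belong to near-identical relatives, hold the same core, and Ifi44 and Slfn9 hold it on the opposite strand. Irf7, Oasl1, Slfn1 and Acod1 had no match to these letters in their windows. A TATA box, searched as TATAAA, was in 28.6% of these called-higher windows, in 19.1% of the windows of all called-higher genes, in 7.22% of windows of members tested and in 13.6% of all windows. The other motifs searched were the kappaB core given further on, AP-1 (TGANTCA), the cyclic AMP response element (TGACGTCA), the E-box (CACGTG), the gamma-activated site (TTCNNNGAA), C/EBP (TTGCNNAA) and CCAAT, and they were in 0 to 32.1% of these windows.

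**Figure D3:**
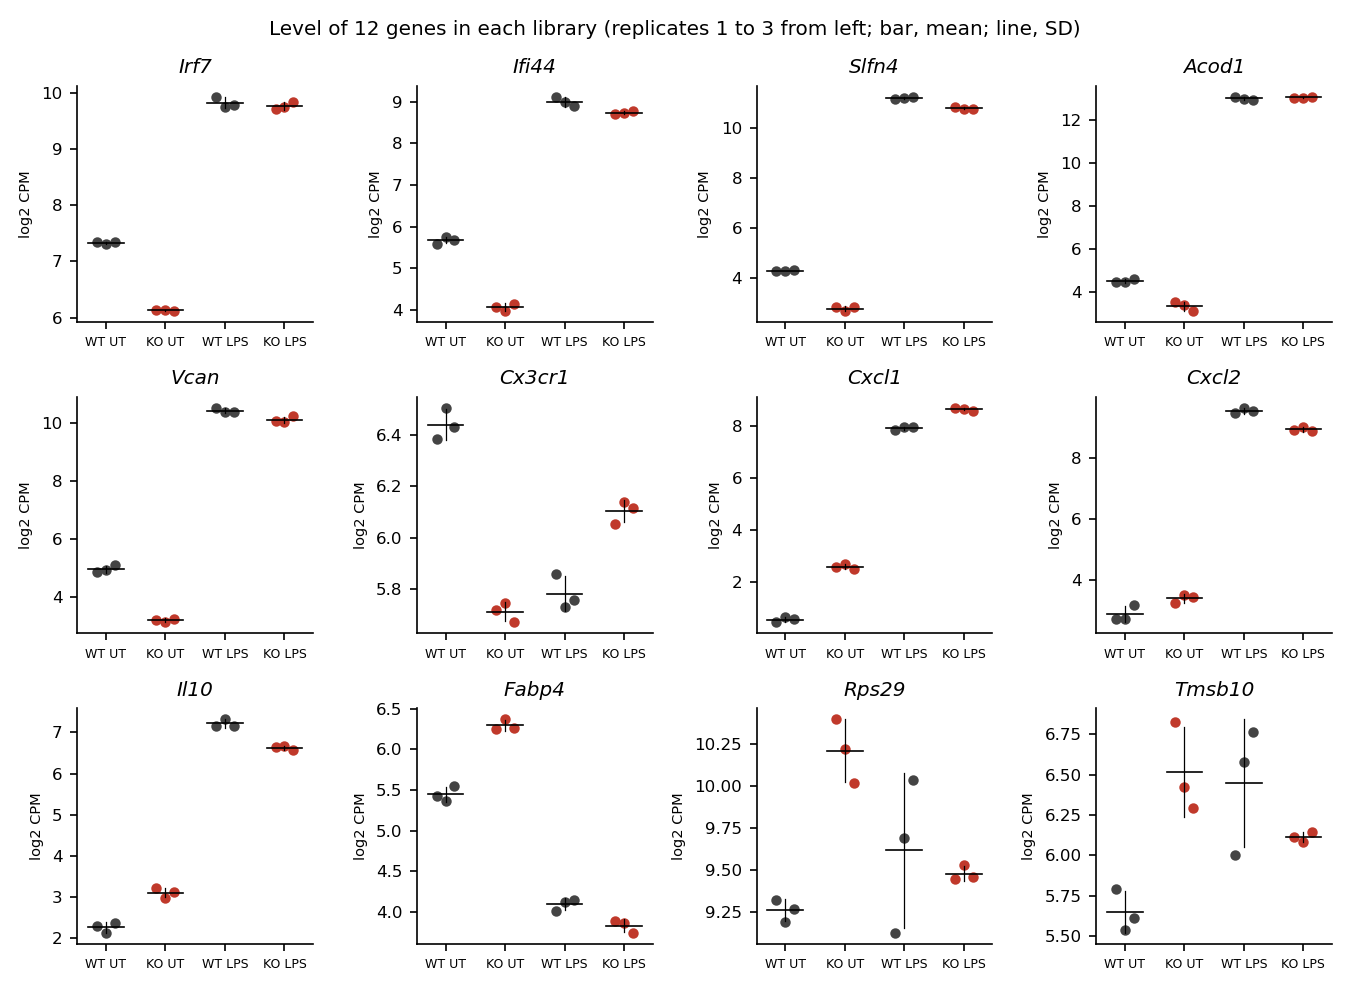
Level of 12 genes in each library as log2 CPM, with WT in grey, KO in red, the mean as a bar and the SD as a line (n = 3); each panel has its own scale. Irf7, Ifi44, Slfn4, Acod1 and Vcan are lower in KO UT and nearer to WT after LPS, Cxcl1 is higher in KO in both treatments, and Rps29 and Tmsb10 are spread widely in WT LPS.

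Acod1 (chromosome 14), which makes the antimicrobial metabolite itaconate, was at 21.7, 21.8 and 24 CPM in WT UT and 11.4, 10.3 and 8.57 CPM in KO UT. After LPS it reached 8495, 8054 and 7684 CPM in WT and 8196, 8321 and 8536 CPM in KO, with overlap (interaction 1.21, SE 0.0974, adjusted p 6.24e-08). Ass1, the enzyme that recycles citrulline to arginine for nitric oxide production, rose by 4.55 in WT and 5.6 in KO (interaction 1.04, SE 0.129, adjusted p 1.74e-05). Acod1 and Ass1 were the only 2 called of 21 genes of arginine, nitric oxide, itaconate and prostaglandin metabolism, in which 4 had a larger and 4 a smaller response at any fold and the median was -0.09. Under the small RNA covariate Acod1 (0.98) and Ass1 (0.73) were no longer called, and Ass1 also lost its call without WT UT replicate 2, KO UT replicate 2 or KO UT replicate 3.

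Vcan (chromosome 13), a large matrix proteoglycan made by activated macrophages, was at 28.8, 30.1 and 33.9 CPM in WT UT and 9.05, 8.64 and 9.43 CPM in KO UT. It was at 1495, 1350 and 1340 CPM in WT LPS and 1091, 1061 and 1217 CPM in KO LPS, so that KO stayed below WT by 0.31 on the log2 scale after a gap of 1.77 before LPS (interaction 1.46, SE 0.101, adjusted p 1.06e-08). Tnfsf8, the CD30 ligand, had an interaction of 1.25 (SE 0.18, adjusted p 9.64e-05) and remained lower in KO after LPS at 29.9 against 39.6 CPM. Zdhhc2, a palmitoyltransferase, and Ifi213 were also lower in KO in both treatments. Gcnt2, a glycan-branching enzyme, and Pnp2, a purine nucleoside phosphorylase, were lower in KO UT and higher in KO LPS, with interactions of 1.12 and 1.15. Lad1 (1.54, SE 0.526, adjusted p 0.0496) had 2 to 30 counts in the UT libraries, and with a replicate block its adjusted p was 0.0794. Tnfsf8 (0.63), Zdhhc2 (0.51), Gcnt2 (0.97), Pnp2 (1.19) and Lad1 (0.59) were no longer called under the small RNA covariate. Zdhhc2 was at 0.90 without KO UT replicate 1 and Pnp2 at 0.89 without WT UT replicate 1, and neither was called there.

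A pair of genes with a larger response did not follow the interferon course. Cx3cr1, the fractalkine receptor, was at 83.5, 90.9 and 86.4 CPM in WT UT, 52.6, 53.7 and 50.9 CPM in KO UT, 58, 53.1 and 54 CPM in WT LPS and 66.5, 70.5 and 69.4 CPM in KO LPS. It thus changed by -0.66 (log2) with LPS in WT and by 0.39 in KO (interaction 1.05, SE 0.0797, adjusted p 3.00e-08), and was the 1 called of 14 chemokine and lipid receptors. Prkar2a, a regulatory subunit of protein kinase A, was at 44.4, 47.4 and 45.3 CPM in WT UT and slightly lower, at 41.8, 40.9 and 41.1 CPM, in KO UT. It fell by 2.98 in WT and 1.83 in KO, to 6.26, 6.46 and 4.48 CPM in WT and 10.6, 11.1 and 13.1 CPM in KO (interaction 1.16, SE 0.139, adjusted p 1.27e-05), so the larger difference lay after LPS. Under the small RNA covariate Cx3cr1 (0.85) and Prkar2a (0.36) were no longer called, and the median of the receptor list went from 0.195 to -0.148. With RLE scaling, or without WT LPS replicate 1, 2 genes of that list were called.

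Some LPS-induced chemokines had a smaller response in KO. Of 21 chemokines tested, 4 were called lower and 0 higher, 8 had a smaller and 2 a larger response at any fold, and the median interaction was -0.44 (-0.76 without WT UT replicate 2). With the exonic length trend taken out the median was -0.10 with 3 called, or 1 with the replicate block added, and under the small RNA covariate it was -0.16 with 1 called. Cxcl1 (chromosome 5), a neutrophil chemoattractant, was at 1.36, 1.54 and 1.47 CPM in WT UT and 5.93, 6.37 and 5.61 CPM in KO UT. After LPS it was at 229, 245 and 246 CPM in WT and 410, 402 and 383 CPM in KO. KO was above WT in both treatments, by 2.03 on the log2 scale before and 0.73 after LPS, and so the smaller rise (interaction -1.30, SE 0.114, adjusted p 2.20e-07) started from a higher level. Cxcl2, its neighbor and close relative, took another course. It was at 6.69, 6.68 and 9.19 CPM in WT UT and 9.46, 11.5 and 10.9 CPM in KO UT, and at 696, 790 and 732 CPM in WT LPS against 480, 516 and 465 CPM in KO LPS. The genotypes thus changed order with LPS (interaction -1.10, SE 0.134, adjusted p 1.65e-05). With the exonic length trend taken out the interaction of Cxcl2 was -0.92 and no longer a call. Ccl8 and Cxcl5 were called at interactions of -2.26 and -2.23, from at most 21 counts in any UT library, and their libraries overlapped after LPS.

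The promoters of Cxcl1 and Cxcl2 are shown because these neighbors both hold a match to the kappaB core, searched as GGGANNTTC on both strands. The match overlaps itself here since the site is a near-palindrome. The core was in 4 of 38 windows of called-lower genes averaging at least 5 CPM (10.5%) and in 2 of 28 of the called-higher ones (7.14%). Besides Cxcl1 and Cxcl2, the called-lower windows with it were those of Cox5b and Mycl, which are not shown. Over all called genes it was in 5.97% of called-lower and 5.88% of called-higher windows, in 3.79% of windows of members tested and in 3.94% of all windows.
Cxcl1, chr5:90891149-90891209, plus strand, 71 bases before the start: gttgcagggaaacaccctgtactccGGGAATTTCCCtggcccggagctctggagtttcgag
Cxcl2, chr5:90903777-90903837, plus strand, 97 bases before the start: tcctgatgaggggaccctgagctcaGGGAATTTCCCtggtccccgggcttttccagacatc
The capitals are the same in both genes, whose levels after LPS differed from WT in opposite directions.

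Il10 (chromosome 1), an anti-inflammatory cytokine, was at 4.91, 4.35 and 5.19 CPM in WT UT and 9.34, 7.9 and 8.7 CPM in KO UT. After LPS it was at 143, 161 and 144 CPM in WT and 99.7, 102 and 95.6 CPM in KO. KO was above WT before and below WT after LPS with no overlap in either (interaction -1.43, SE 0.111, adjusted p 3.87e-08). Il10 was the 1 called of 20 interleukins and growth factors tested, of which 3 had a smaller and 2 a larger response at any fold. Ptx3, a soluble pattern recognition protein, had at most 11 counts in the UT libraries and was at 38.4, 42.4 and 38.1 CPM in WT LPS and 19.2, 18.7 and 19.5 CPM in KO LPS. Its interaction of -2.57 (SE 0.807, adjusted p 0.0331; 0.0573 with a replicate block) was fitted on those few UT counts, while the genotype difference after LPS was -1.05 on the log2 scale. Mycl, a MYC family gene, was also lower after LPS in KO without overlap (interaction -1.45, adjusted p 0.0322), from 3 to 24 counts in UT. Scimp, an adaptor of Toll-like receptor signalling, differed before LPS, with 3, 11 and 5 counts in WT UT and 10, 25 and 22 in KO UT, and overlapped after it (interaction -1.72, SE 0.418, adjusted p 0.00672). Serpina3g, a serine protease inhibitor, had 2 to 20 counts in UT, and its adjusted p of 0.0356 was 0.0605 with a replicate block.

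Metallothioneins Mt1 and Mt2, which bind zinc and copper, and Timp1, an inhibitor of metalloproteases, rose less in KO from a higher UT level. Mt1 was at 47.4, 41.3 and 43.2 CPM in WT UT and 97.4, 89.7 and 81 CPM in KO UT, and at 270, 351 and 452 CPM in WT LPS against 304, 315 and 319 CPM in KO LPS (interaction -1.22, SE 0.165, adjusted p 5.10e-05). The WT LPS libraries were widely spread and held those of KO within their range. Timp1 was at 1.13 to 1.19 CPM in WT UT, 2.6 to 3 CPM in KO UT, 136 to 198 CPM in WT LPS and 164 to 172 CPM in KO LPS (interaction -1.24, adjusted p 0.000263). Mt2 had an interaction of -1.17 (adjusted p 0.00105). With the exonic length trend taken out Mt1 (-0.88), Mt2 (-0.67) and Timp1 (-0.83) were no longer called, and under the small RNA covariate Mt1 (0.59) and Timp1 (0.0253) turned positive and Mt2 was at -0.26. Fabp4, a fatty acid carrier and the 1 called of 18 genes of LXR signalling and lipid efflux, fell with LPS by 1.36 in WT and by 2.47 in KO. It was at 42.9, 41.3 and 46.9 CPM in WT UT and 76.3, 83.1 and 76.6 CPM in KO UT, and KO was slightly below WT after LPS (interaction -1.11, SE 0.102, adjusted p 3.89e-07). Fabp4 was at -0.80 and no longer called under the small RNA covariate. Rgs1, a regulator of G protein signalling that was chosen after its values were seen, was at 230 CPM in WT UT and 241 CPM in KO UT with overlap, and fell further in KO, to 29.6 against 62.3 CPM (interaction -1.14, adjusted p 2.54e-08).

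**Figure D4:**
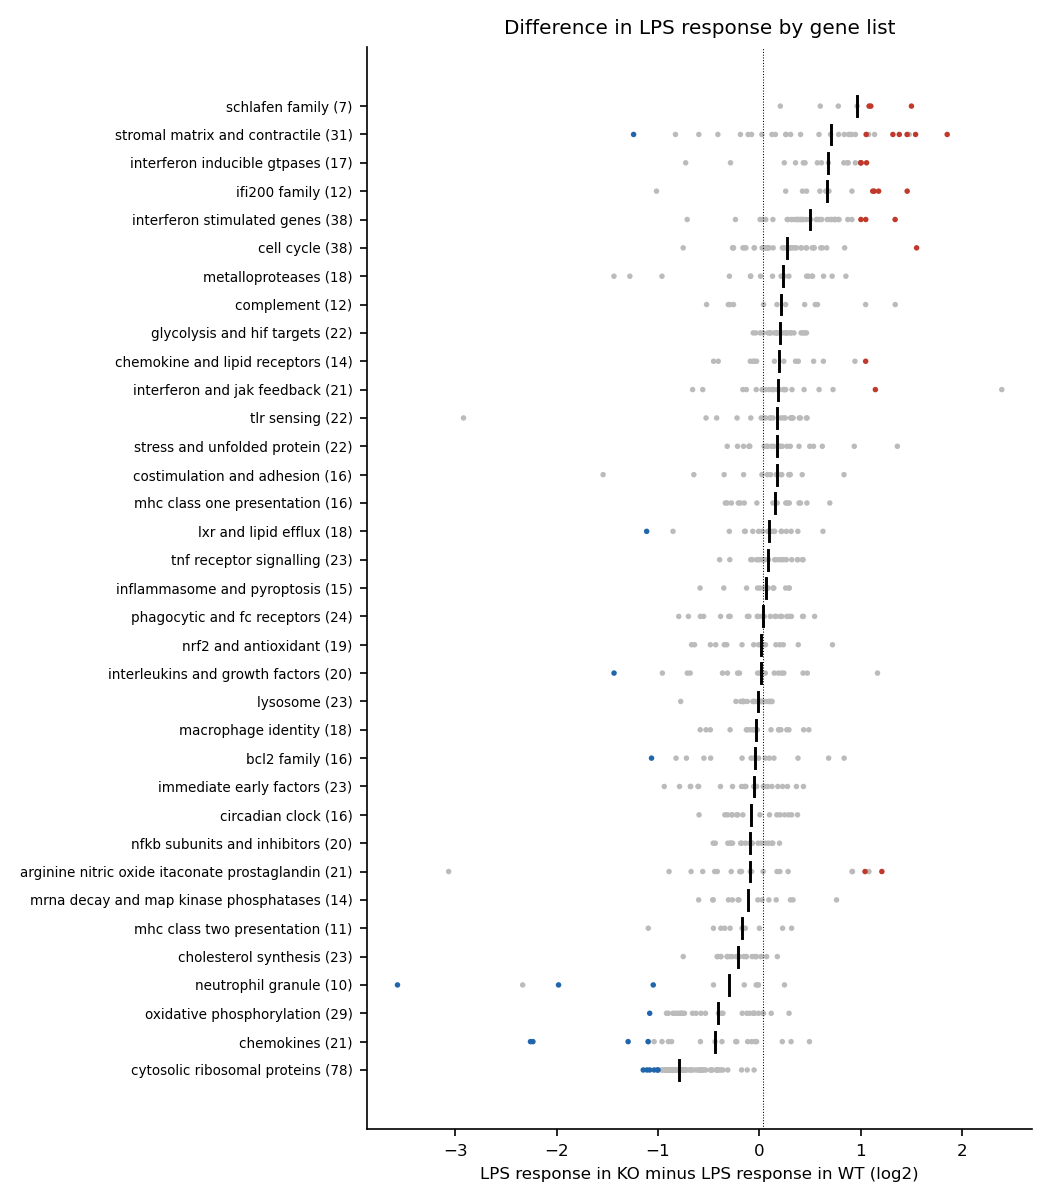
Difference in LPS response (KO minus WT, log2) of each gene tested in 35 gene lists with at least 5 genes, with the median of each list as a bar, called genes in red (higher) or blue (lower), and the median of all members as a dotted line. The Schlafen, Ifi200, interferon-inducible GTPase, interferon-stimulated gene and stromal lists lie highest, at medians of 0.50 to 0.97, and ribosomal proteins lowest, at -0.80.

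Genes with a smaller response in KO had a shorter median exonic length than other members. Exonic length, the summed length of all annotated exons of a gene, had a median of 1611 bases in the 83 genes called lower, 5421 in the 67 called higher and 4478 in all members tested. Among the 267 members under 1000 bases, 27 were called lower and 0 higher (10.1% called lower), while among the 6913 members of 4000 bases or more 12 were called lower and 42 higher. The median interaction went from -0.695 in the shortest class through -0.27 and -0.00 to 0.09 in the longest. The shortest class was higher in KO UT, with a median genotype difference of 0.57, and at -0.14 after LPS. The libraries differed in the same way: genes under 1000 bases took 2.15 to 2.28% of member counts in WT UT, 2.95 to 3.19% in KO UT, 2.77 to 3.77% in WT LPS and 2.88 to 3.02% in KO LPS. The 3 WT LPS libraries were the most spread, at 2.77, 3.3 and 3.77%, where their small RNA shares were 4.97, 6.25 and 7.71%. With the trend of each library on exonic length taken out, 29 of the 83 lower calls and 58 of the 67 higher calls were still made.

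**Figure D5:**
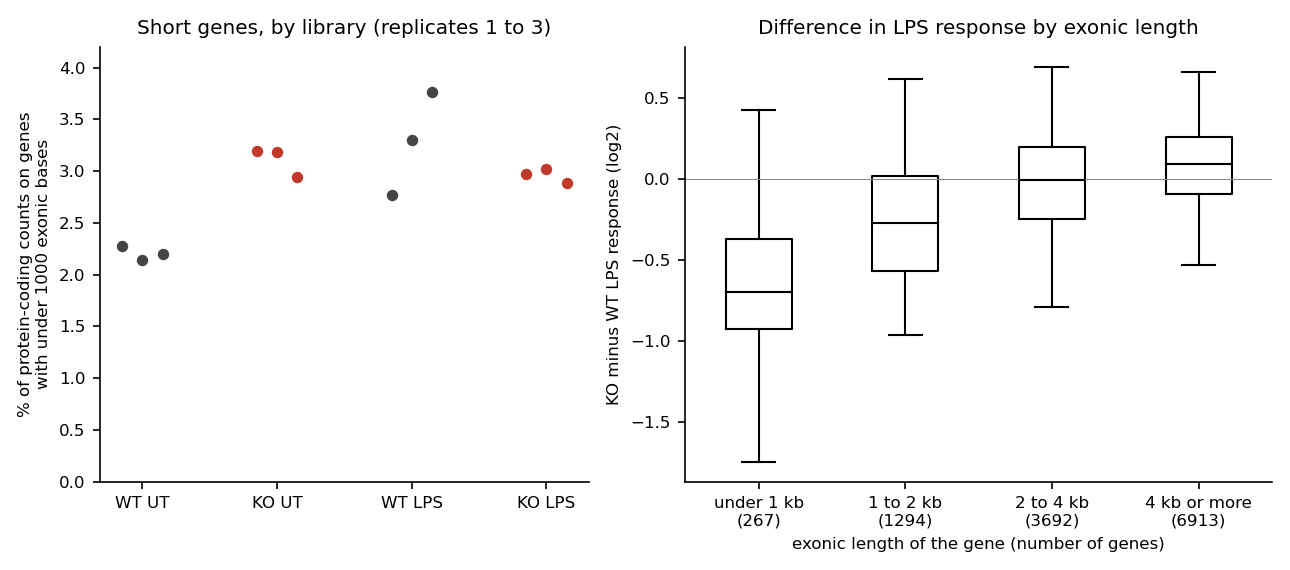
Left, percent of protein-coding counts on genes with under 1000 exonic bases in each library, WT grey and KO red. Right, interaction (log2) by exonic length, with the median, quartiles and 5th to 95th percentile of each class; the median rises from -0.695 in the 267 shortest genes to 0.09 in the 6913 longest.

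Ribosomal protein genes were the largest group of this kind. Of 78 genes for proteins of the cytosolic ribosome, 73 had a smaller response in KO at any fold and 0 a larger one, 6 were called, and the median interaction was -0.80. All KO UT libraries lay above all WT UT libraries in 76 of the 78. Rps29 was at 640, 583 and 616 CPM in WT UT, 1348, 1192 and 1036 CPM in KO UT, 557, 826 and 1050 CPM in WT LPS and 696, 738 and 703 CPM in KO LPS (interaction -1.15, SE 0.191, adjusted p 0.000284). The KO LPS libraries lay within the range of the WT LPS libraries, as they did for Rps28 (-1.11), Rpl36 (-1.08), Rps16 (-1.04), Rpl37 (-1.0) and Rps26 (-1.0). Without WT LPS replicate 1, 24 of the 78 were called. Without WT LPS replicate 3, 0 of the 78 were called and the median was -0.65. The count was 10 without KO UT replicate 3, 3 without WT UT replicate 2 or with RLE scaling, and 2 without KO UT replicate 1. With a replicate block Rpl37 and Rps26 were at -0.999 and -0.998 and were no longer called. With the exonic length trend taken out the median was -0.54 with 0 called, and with the small RNA share as a covariate it was 0.44, so the direction turned. Of 29 genes of oxidative phosphorylation, 18 had a smaller response at any fold, 0 a larger one, and 1 was called, Cox5b, a subunit of cytochrome c oxidase (-1.08, adjusted p 0.000194), at a list median of -0.40 that also turned, to 0.33, with that covariate. With the exonic length trend taken out that median was -0.21 and Cox5b (-0.82) was no longer called. No gene of the list was called without WT LPS replicate 3, and 3 were called without WT LPS replicate 1.

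Other short genes called lower were Scand1, a SCAN domain gene, at 23.4, 17.1 and 16.9 CPM in WT UT, 41, 44.7 and 26.9 CPM in KO UT, 23.5, 45.7 and 45.1 CPM in WT LPS and 15.4, 27.7 and 23.1 CPM in KO LPS (interaction -1.75, SE 0.309, adjusted p 0.000476). S100a4, a calcium-binding protein of motile cells, differed in both treatments without overlap, higher in KO UT by 0.65 and lower in KO LPS by 0.72 (interaction -1.37, SE 0.227, adjusted p 0.000271). Tmsb10, which binds monomeric actin, Snrpf, a core splicing protein, H2afj, a histone H2A variant whose symbol is outside the rule on Hist names, and Gm11808, a predicted gene of 504 exonic bases, had interactions between -1.25 and -1.22. Under the small RNA covariate Scand1 (0.94), S100a4 (1.21), Tmsb10 (0.77), Snrpf (0.92), H2afj (1.07) and Gm11808 (1.41) all turned positive. S100a4 (-0.85), Tmsb10 (-0.92), Snrpf (-0.83), H2afj (-0.997) and Gm11808 (-0.69) were no longer called with the exonic length trend taken out. Bcl2a1b, of the anti-apoptotic Bcl2a1 family whose copies are nearly identical, had -1.06 (adjusted p 0.0144). S100a8, a calprotectin subunit held by neutrophils and also induced in macrophages, had -1.05 (adjusted p 0.000328). Neither call was stable: Bcl2a1b was at 0.155 and S100a8 at 0.557 under the small RNA covariate, and at -0.635 (adjusted p 0.0985) and -0.572 with the exonic length trend taken out. With RLE scaling neither was called. Bcl2a1b lost its call in 4 and S100a8 in 3 of the 12 fits that left out 1 library. Reads from overlapping genes on the opposite strand, present for Scand1, Snrpf, H2afj, Mt2, Irf7 and Oasl1 among others, are a further limit, since how strand was handled in counting is not given in the sources used here.

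Matrix and contractile genes were mostly at low counts. Of 31 tested, 10 had a larger and 2 a smaller response at any fold, 6 were called higher (Col3a1, Col6a1, Col1a2, Postn, Timp3 and Vcan) and 1 lower (Timp1), and the median was 0.70. Without WT LPS replicate 1, 10 were called higher, and without WT UT replicate 2 or WT LPS replicate 2, 4. Apart from Vcan and Timp1 the called genes were at 0.869 to 3.32 CPM on average. Col3a1, a fibrillar collagen, had 37, 31 and 55 counts in WT UT, 28, 20 and 28 in KO UT, 31, 11 and 6 in WT LPS and 51, 48 and 51 in KO LPS (interaction 1.85, SE 0.518, adjusted p 0.0168). Its difference lay after LPS, where KO was higher by 1.49 on the log2 scale, and its WT LPS counts were spread from 6 to 31. Timp3 was higher in KO in both treatments, by 0.42 and 1.47. Col6a1 had an adjusted p of 0.0343, and of 0.0519 with a replicate block. The summed level of 7 stromal markers was 21.9 to 24.1 CPM in WT LPS and 26.9 to 28.9 CPM in KO LPS, against 4.82 to 6.82 CPM in the UT libraries. Pdgfrb made up most of that sum after LPS and was at 19.8 CPM in WT and 19.7 CPM in KO, and Lum did not pass the filter. The part of stromal cells in these values was not tested. With the small RNA share as a covariate the list median was -0.35 with 1 called higher, and Col3a1 (-2.11), Col1a2 (-0.56) and Postn (-0.84) turned negative.

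In the neutrophil granule list, 3 of 10 genes tested were called lower (Mpo, Camp and S100a8) and 0 higher. The list median of -0.30 was not stable. It was 0.51 with 0 called under the small RNA covariate and 0.05 with 1 called when the exonic length trend was taken out. It was -0.0127 without KO UT replicate 1, -0.18 without KO UT replicate 2, -0.51 without WT LPS replicate 1, -0.14 without WT LPS replicate 3 and -0.79 without KO LPS replicate 3. Only 1 was called without KO UT replicate 2, WT LPS replicate 3 or KO LPS replicate 2. Mpo, the myeloperoxidase gene, had 1, 2 and 4 counts in WT UT, 20, 11 and 11 in KO UT and at most 3 in any LPS library, so that no fold is given after LPS. Camp, the cathelicidin gene, had 8, 8 and 12 counts in WT UT and 35, 27 and 31 in KO UT, and 90 to 122 counts after LPS in both genotypes (interaction -1.98, SE 0.35, adjusted p 0.000476). Elane, Prtn3 and Ly6g did not pass the filter, and Ly6g was at 0 in every library. Rrm2, a ribonucleotide reductase subunit, was the 1 called of 38 cell cycle genes, with 404 to 534 counts in WT UT, 164 to 258 in KO UT and 13 to 41 after LPS (interaction 1.55, SE 0.311, adjusted p 0.00139), while 10 of the 38 had a larger and 0 a smaller response at any fold. The median of that list was 0.28, and 0.18 without WT UT replicate 1. Under the small RNA covariate it was 0.00747 with 0 called, and Rrm2 was at -0.152.

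In 21 of the 37 lists no gene was called. Since 1.23% of all members were called, a list of this size can hold no call without differing from other members. Among them were the TNF receptor signalling list (0 of 23 called, median 0.09), in which Tnfrsf1b, the second TNF receptor, had 0.43 (adjusted p 0.00016) and Cflar, an inhibitor of caspase 8, 0.20 (adjusted p 0.119). The NF-kappaB subunits and inhibitors list (0 of 20) held Tnfaip3, the A20 deubiquitinase, at -0.28 (adjusted p 0.0237) and Tnip3 at -0.28 (adjusted p 0.00957), and 5 of the 20 had a smaller response at any fold. Among Toll-like receptor sensing genes (0 of 22), Cd14, the LPS co-receptor, had -0.53 (adjusted p 3.73e-05) and Tlr2 0.04 (adjusted p 0.756). Of these 22 genes 8 had a larger and 2 a smaller response at any fold, with a median of 0.17. Glycolytic and hypoxia-inducible genes (0 of 22) included 10 with a larger response at any fold and 0 with a smaller one, with Pkm at 0.28 (adjusted p 0.00429) and Aldoa at 0.18 (adjusted p 0.106). Complement genes (0 of 12) held C3 at 0.45 (adjusted p 0.000461) and C1qc at -0.25, and C1qc was higher in KO by 1.00 in UT and 0.75 after LPS. Class I presentation genes (0 of 16) held B2m at -0.34 and H2-D1 at -0.32. Of that list 6 had a larger and 2 a smaller response at any fold, with a median of 0.16. Class II genes (0 of 11) held H2-Ab1 at -0.45 and Ctss at -0.16, with 1 larger and 3 smaller responses at any fold. Metalloproteases (0 of 18) held Mmp13, a collagenase, at 0.85 (adjusted p 2.75e-05), with 5 larger and 0 smaller responses at any fold.

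The share of calls also varied with the strength of the response. In members whose mean LPS response over both genotypes was 4 or more on the log2 scale, 36 of 351 were called (10.3%), 24 higher and 12 lower, while among 7650 members with a mean response between -1 and 1 the calls were 13 higher and 39 lower (0.68%). The median interaction was 0.12 in the first class and 0.02 in the second. The median SE was 0.35 in the first and 0.12 in the second, so the shares of calls rest on unequal precision. Among the called genes, 33 of the 67 higher and 25 of the 83 lower rose with LPS in both genotypes by call. In 29 of these 33 all KO UT libraries lay below those of WT UT, and in 19 of these 25 all lay above.

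Of the 150 called members, 76 had a mean CPM of at least 5, with 29 higher and 47 lower. The other 38 higher and 36 lower calls had interactions of 1.02 to 3.43 and -5.96 to -1.03. In 11 of them (6 higher, 5 lower) every library of at least 1 group had 3 counts or fewer, and their fitted values depend on the prior count. The interaction of 7 called genes was past the thresholds in each of the 22 fits compared, of which Slfn1, Slfn4, Ifi213 and Vcan had a larger response in KO and Il10, Cxcl1 and Rgs1 a smaller one.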

How the data were processed

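The deposited table held whole-number read counts per Ensembl gene for 12 libraries, which the authors made from paired-end stranded total RNA reads with FastQC 0.11.9, HISAT2 2.1.0 on GRCm38 (mm10), SAMtools 1.17 and featureCounts 2.0.0. The annotation release, strand setting and treatment of multi-mapping reads are not given in the sources used here. Genes were matched to GENCODE by identifier, and 468 of 48526, with 0.144% of counts, were not matched. Counts were fitted with edgeR 4.0.16 (R 4.3.3) by the quasi-likelihood test after filterByExpr (minimum count 10, minimum total 15) and TMM scaling, over all 4 groups, with Benjamini-Hochberg adjustment over the 15523 genes tested. Genes were called at an adjusted p under 0.05 together with a log2 change beyond 1 in size. The common biological coefficient of variation was 0.0712. Replicates of a group differed by more than sampling noise (chi-square per degree of freedom 3.77 to 43.7). The script was tested on simulated data.

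The labels give the replicate number as a batch number, which pairs libraries across groups. Deviations of same-numbered libraries had correlations of -0.0765 to 0.079 over 18 pairs. Alternatives were RLE and upper-quartile scaling, DESeq2 1.42.0, other filters, a replicate block, the small RNA share as a covariate, other fold change thresholds and leaving out each library. Removal of the exonic length trend was chosen after seeing the data. The members and gene lists were chosen with earlier results of these data known. Named genes were Tnf, Lta, Ltb and Il6, the 15 called members of largest interaction in each direction that averaged at least 5 CPM, and in each list the called members or, with none, the 2 of highest CPM, of which some are given. Rgs1, Msh5, Gm16181 and Ifi27l2a were named after their values were seen. Promoter sequences were from RefSeq on GRCm38.p6.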

Additional observations from a re-analysis of the deposited data

Results flagged for a closer look

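These genes had an LPS response that differed between KO and WT by the test of the difference itself (edgeR, adjusted p below 0.05 and an absolute log2 difference above 1). Values are the KO response minus the WT response on the log2 scale.

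The response was larger in KO for 30 of them: Col3a1 1.86, Rrm2 1.55, Lad1 1.54, Col6a1 1.54, Slfn1 1.5, Vcan 1.46, Ifi206 1.46, Col1a2 1.38, Ifi44 1.34, Postn 1.32, Tnfsf8 1.25, Acod1 1.21, Ifi209 1.18, Prkar2a 1.16, Pnp2 1.15, Irf7 1.15, Ifi214 1.14, Gcnt2 1.12, Ifi213 1.12, Zdhhc2 1.12, Slfn9 1.10, Slfn4 1.08, Gvin1 1.06, Timp3 1.06, Cx3cr1 1.05, Ifit2 1.05, Ass1 1.04, Oasl1 1.00, Gbp6 1.00, Tgtp2 1.00.

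The response was smaller in KO for 30 of them: Mpo -3.57, Ptx3 -2.57, Ccl8 -2.26, Cxcl5 -2.24, Camp -1.98, Serpina3g -1.80, Scand1 -1.75, Scimp -1.72, Mycl -1.45, Il10 -1.43, S100a4 -1.37, Cxcl1 -1.30, Snrpf -1.25, Tmsb10 -1.25, Timp1 -1.24, Gm11808 -1.24, H2afj -1.22, Mt1 -1.22, Mt2 -1.17, Rps29 -1.15, Fabp4 -1.11, Rps28 -1.11, Cxcl2 -1.10, Cox5b -1.08, Rpl36 -1.08, Bcl2a1b -1.06, S100a8 -1.05, Rps16 -1.04, Rpl37 -1.0, Rps26 -1.0. Mpo had 3 counts or fewer in every LPS library, so the size of its value is not reliable. Ptx3, Ccl8, Cxcl5, Camp, Serpina3g, Scimp, Mycl and Lad1, among others, rested on few counts in the UT libraries, as given in the report.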

How the results depend on the processing

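The 150 calls (67 higher, 83 lower) were 172 with DESeq2 (105 higher), 65 with the small RNA share as a covariate (31 higher, 34 lower), 78 in a test against a log2 fold change of 0.5 (41 higher, 37 lower) and 2239 with no fold change minimum (1105 higher, 1134 lower). With the exonic length trend removed, chosen after seeing the data, 31 lower calls were made, and with the replicate block added there were 89 calls, of which 26 were lower. Leaving out each library in turn gave 97 to 274 calls, 52 to 98 higher and 45 to 176 lower. The highest counts came without WT LPS replicate 1 (274, with 176 lower) and the lowest without WT LPS replicate 3 (97, with 45 lower). Of the calls, 31 of the 67 higher and 24 of the 83 lower were made in every fit that left out 1 library. Of 60 called named genes, 28 lost the call in at least 1 of these 12 fits. Mpo lost it in 9, Lad1 in 8, Mycl and Serpina3g in 7, Cxcl5, Ptx3, Ifi214, Tgtp2 and Rps26 in 6, Col6a1, Gbp6 and Rps16 in 5, Oasl1, Bcl2a1b and Rpl37 in 4, and Ass1, S100a8 and Timp3 in 3. Without WT LPS replicate 3 the calls of Ifit2, Gm11808, Cox5b, Rps28, Rps29 and Rpl36 ended, without WT UT replicate 1 those of Pnp2 and Gvin1, without KO UT replicate 1 those of Zdhhc2, Gvin1 and Rpl36, and without WT UT replicate 3 or WT LPS replicate 2 that of Col3a1. The replicate block alone gave 124 calls (58 higher, 66 lower). It ended the calls of Ptx3 (-2.57, edgeR adjusted p 0.0573), Serpina3g (-1.78, 0.0605), Lad1 (1.54, 0.0794), Col6a1 (1.58, 0.0519), Mpo (-3.56, 0.071), Rpl37 (-0.999) and Rps26 (-0.998), and changed no other call of a named gene. With the small RNA covariate the interaction was positive for S100a4 (1.21), Timp1 (0.0253), Snrpf (0.917), Mt1 (0.59), Scand1 (0.945), H2afj (1.07), Gm11808 (1.41) and Tmsb10 (0.767), which were negative without it. In all 21 of the 103 named genes changed sign under this covariate, among them 4 that had been called higher, Col3a1 (-2.11), Postn (-0.836), Col1a2 (-0.56) and Rrm2 (-0.152). Over all calls the sign was kept in 59 of the 67 higher and 46 of the 83 lower, and 5 and 4 were still called. The cause was not tested. Depth limited genes at a few counts in a group most: 11 called genes had a group with 3 counts or fewer in every library, and their fitted sizes depend on the prior count.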
